A study of Rattus norvegicus with 25 samples.

Results

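Genes of oligodendrocyte precursors and of the transcription factors that define their lineage were followed in the striatum of rats given levodopa alone or levodopa with trapidil. The genes were chosen by symbol. The 10 named genes were Sox10, Olig1, Olig2, Gpr17, C1ql1, Neu4, Vcan, Lhfpl3, Bcas1 and Tnr. Of these, 9 matched a line among the 28909 gene names counted, and all 9 passed the filter on low counts; Lhfpl3 was not analysed here. The 25 animals were female Sprague Dawley rats with a 6-hydroxydopamine (6-OHDA) lesion, a toxin lesion of dopamine neurons. After surgery random allocation gave levodopa alone at 6 mg/kg QD (n = 5), that levodopa dose plus 7.5 mg/kg BID of trapidil (n = 10), or it plus 15 mg/kg BID of trapidil (n = 10). The series title pairs levodopa with benserazide, an inhibitor of its peripheral breakdown. Dosing lasted 14 days, and the striatum on the lesioned side was taken on day 15, with 1 hour given between dosing and collection. All arms therefore carry the lesion and levodopa, and the comparisons bear on trapidil on that background; the sources used here give no animal ages. Trapidil is a vasodilator known to inhibit phosphodiesterases and to oppose PDGF signalling.

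Oligodendrocyte precursors are dividing glial cells spread through the adult brain, which depend on platelet-derived growth factor A and its receptor Pdgfra for proliferation and survival. As they commit, they switch on Gpr17 and Bcas1, and as they mature they make myelin. The basic helix-loop-helix factors Olig1 and Olig2 and the SOX factor Sox10 are expressed from the precursor to the myelinating cell, so they mark the whole lineage and not one stage.

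Total gene counts ran from 10838513 to 20532290 per library. Markers of spiny projection neurons, the main striatal cell, summed to 9525 to 16897 CPM (read counts scaled to a common library total) over the 25 libraries, against 62.9 to 155 CPM for markers of cortical excitatory neurons. Levodopa replicate 2 stood apart. Its spiny neuron sum was the lowest of all libraries, 9525 CPM against 13297 to 16889 CPM in the other levodopa animals, and mitochondrially encoded genes took 17.3% of its counts. It had the highest sum of its arm for 11 of 17 other marker lists examined, those of astrocytes, microglia, endothelial cells and mature oligodendrocytes among them. The 9 genes, the ratio and the counts of called genes in the lists below are given with and without it. Levodopa replicate 4 differed in another way. On the main axis of variation over the tested genes (principal component 1 of log2 CPM) it stood at 14.0. The other levodopa animals stood at -33.6 to -19.8 and the 15 mg/kg animals at -7.18 to 22.8. At 7.5 mg/kg replicates 1 and 6 stood at -38.4 and -42.5, and the rest of that arm at -8.1 to 27.1. Each library was treated as 1 animal. In bulk tissue fewer cells of a type and less RNA per cell cannot be told apart.

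The RefSeq promoter table of the GRCr8 assembly held 6 of the 10 genes. The promoters of 3 are shown because their transcripts behaved differently here: Olig2 varied closely with Sox10 between animals, Neu4 was scarce, and Tnr did not follow Sox10. Each runs 5′ to 3′ from 250 bases before to 50 bases after an annotated transcript start on the plus strand: chr11:43961335-43961634 for Olig2, chr9:101844011-101844310 for Neu4 and chr13:74624776-74625075 for Tnr. Capitals mark letters that a search on both strands found for 4 hexamers: the E-box forms CAGCTG and CATATG, which helix-loop-helix factors of the Olig kind are known to bind, and ACAAAG and AACAAT, core forms known for SOX factors. Neu4 held CAGCTG at position 50, Tnr held AACAAT at position 135, and Olig2 held none of these letters. Of 27457 promoters of this length, 15.1% held CAGCTG, 3.96% CATATG, 18.3% ACAAAG and 11.6% AACAAT, so such matches are common. The promoters of Gpr17, Vcan and Lhfpl3, also held there, are not shown. Whether these letters relate to the transcript levels was not tested.
Olig2 promoter: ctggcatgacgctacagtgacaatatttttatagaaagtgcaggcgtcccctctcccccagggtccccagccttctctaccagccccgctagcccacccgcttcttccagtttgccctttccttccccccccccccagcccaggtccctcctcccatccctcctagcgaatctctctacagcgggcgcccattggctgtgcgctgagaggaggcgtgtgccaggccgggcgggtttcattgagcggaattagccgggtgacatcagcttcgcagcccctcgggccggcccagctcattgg
Neu4 promoter: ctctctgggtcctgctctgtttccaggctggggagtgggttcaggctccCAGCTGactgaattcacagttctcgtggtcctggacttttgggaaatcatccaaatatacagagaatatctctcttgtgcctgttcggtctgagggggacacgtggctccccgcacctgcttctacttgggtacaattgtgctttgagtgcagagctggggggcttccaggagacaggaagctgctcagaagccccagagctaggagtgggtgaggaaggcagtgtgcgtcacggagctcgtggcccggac
Tnr promoter: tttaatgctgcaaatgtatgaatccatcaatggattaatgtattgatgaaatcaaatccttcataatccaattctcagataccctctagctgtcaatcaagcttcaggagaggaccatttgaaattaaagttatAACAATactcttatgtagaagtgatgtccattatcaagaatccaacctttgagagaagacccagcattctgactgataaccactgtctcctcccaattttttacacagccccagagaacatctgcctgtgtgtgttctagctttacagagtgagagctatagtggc

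Among the transcription factors, Sox10 fell at 15 mg/kg. It stood at 144, 162, 126, 104 and 112 CPM in levodopa replicates 1 to 5. With trapidil at 7.5 mg/kg it ran from 71.97 to 176 CPM with a median of 98.2 CPM, and at 15 mg/kg from 59.1 to 119 CPM with a median of 80.4 CPM. The ranges overlapped, but at 15 mg/kg 9 of 10 animals lay below the lowest levodopa animal, replicate 4 being the exception. The means were 130 ± 23.6 CPM (SD, n = 5), 105 ± 31.2 CPM (SD, n = 10) and 83.6 ± 16.3 CPM (SD, n = 10). At 15 mg/kg the log2 fold change against levodopa was -0.63 ± 0.16 (SE; edgeR quasi-likelihood test, Benjamini-Hochberg adjusted p = 0.0464), and an exact two-sided permutation test over the animals, which does not pool the spread of the arms, gave an unadjusted p of 0.00133. The call did not hold in every fit: it was lost without a low-count filter (adjusted p = 0.0521 with edgeR) and in 11 of 15 fits that left out 1 animal. At 7.5 mg/kg the log2 fold change was -0.30 ± 0.16 (edgeR adjusted p = 0.466).

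Olig1 was at 256 ± 61.0 CPM (SD, n = 5) with levodopa, 216 ± 66.6 CPM (SD, n = 10) at 7.5 mg/kg and 195 ± 29.4 CPM (SD, n = 10) at 15 mg/kg. At the high dose 8 of 10 animals lay below the lowest levodopa animal (199.6 CPM). The log2 fold change of -0.39 ± 0.16 did not pass (edgeR adjusted p = 0.184). Olig2 stood at 65.0, 75.4, 60.4, 57.6 and 46.2 CPM in levodopa replicates 1 to 5. It ran from 38.5 to 76.6 CPM at 7.5 mg/kg (median 46.8) and from 44.4 to 75.6 CPM at 15 mg/kg (median 54.2), so that the arms covered much the same range. Its log2 fold changes were -0.29 ± 0.14 at 7.5 mg/kg (edgeR adjusted p = 0.421) and -0.11 ± 0.14 at 15 mg/kg (edgeR adjusted p = 0.71).

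**Figure D1:**
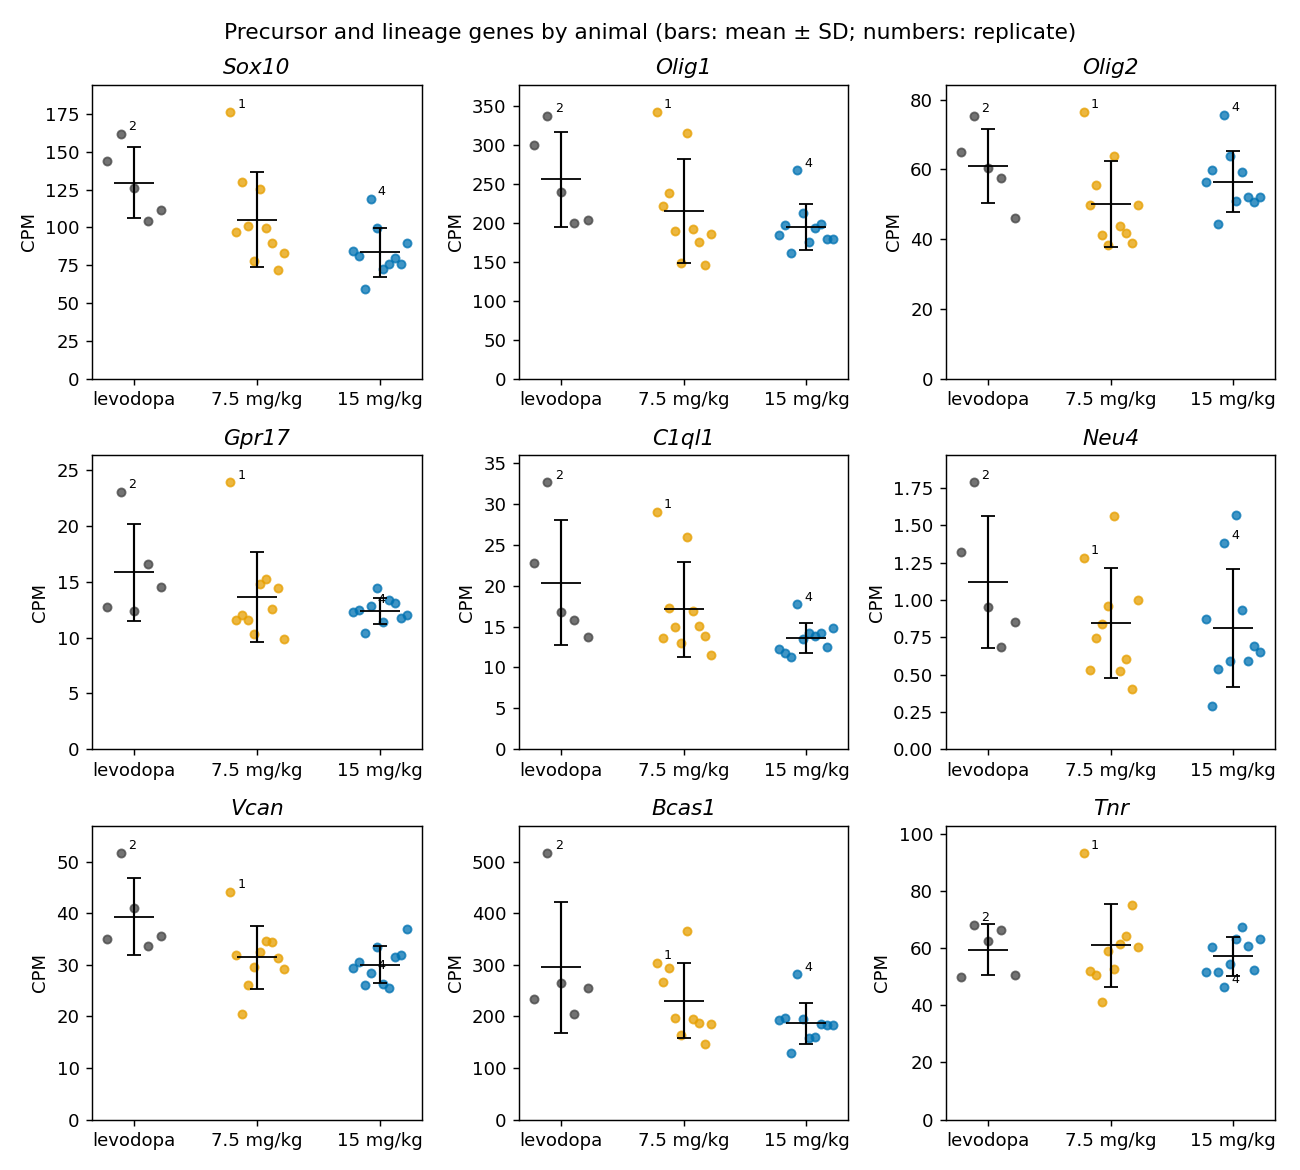
Each panel plots CPM (vertical axis, from 0) of a gene in every animal of the 3 arms (horizontal axis), with bars for mean ± SD. The numbers mark levodopa replicate 2, which is the highest levodopa animal in all 9 panels, the 7.5 mg/kg replicate 1, the highest of its arm in 7, and the 15 mg/kg replicate 4, the highest of its arm in 5.

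Gpr17, Bcas1 and Neu4 were grouped as genes of the step from precursor to oligodendrocyte. Bcas1 varied between animals with the mature oligodendrocyte genes described below (Pearson r = 0.893), more closely than Gpr17 (0.548) or Neu4 (0.429). Its level is therefore not read as that of committed precursors alone. Bcas1, a marker of cells that begin to make myelin, had the most negative log2 fold change of the 9 genes at 15 mg/kg. Levodopa replicates 1 to 5 had 233, 517, 265, 204 and 256 CPM, so replicate 2 stood far above the others. The range was 146 to 366 CPM (median 195) at 7.5 mg/kg and 129.5 to 281 CPM (median 185) at 15 mg/kg, where 9 of 10 animals lay below the lowest levodopa animal. Its log2 fold change at 15 mg/kg was -0.66 ± 0.20 (edgeR adjusted p = 0.0767) and did not pass. Gpr17, a G-protein-coupled receptor expressed for a short time before maturation, was at 15.9 ± 4.36 CPM (SD, n = 5), 13.6 ± 4.06 CPM (SD, n = 10) and 12.4 ± 1.13 CPM (SD, n = 10), with -0.35 ± 0.15 at 15 mg/kg (edgeR adjusted p = 0.197). In the GRCr8 annotation its gene overlaps Lims2, that of Bcas1 overlaps Rps23-ps5 and LOC120101805, and that of Tnr overlaps LOC134481521. These are overlaps of whole gene spans in GRCr8, whereas the counts were made on Rnor_6.0. No strand setting is stated, and whether the overlaps affected the counts was not tested. Neu4, a sialidase, was measured on 4 to 29 reads per library, too few to show a modest difference. Its mean was 1.12 CPM with levodopa, 0.844 CPM at the low dose and 0.810 CPM at the high dose, with SDs of 0.441, 0.367 and 0.396 CPM.

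The secreted and matrix genes did not behave alike. Vcan encodes versican, a chondroitin sulfate proteoglycan of the matrix around precursors. It stood at 34.99, 51.8, 41.0, 33.6 and 35.6 CPM in levodopa replicates 1 to 5, at 20.5 to 44.2 CPM (median 31.7) at 7.5 mg/kg and at 25.5 to 36.9 CPM (median 30.01) at 15 mg/kg. Of 10 animals, 7 at the low and 9 at the high dose lay below the lowest levodopa animal. The log2 fold changes of -0.33 ± 0.12 (edgeR adjusted p = 0.325) and -0.39 ± 0.12 (edgeR adjusted p = 0.0792) did not pass. C1ql1, a secreted protein related to complement C1q, was at 20.4 ± 7.66 CPM (SD, n = 5), 17.1 ± 5.79 CPM (SD, n = 10) and 13.6 ± 1.86 CPM (SD, n = 10), with -0.58 ± 0.19 at 15 mg/kg (edgeR adjusted p = 0.0902). Tnr, which encodes the matrix glycoprotein tenascin-R, was at 59.5 ± 8.76 CPM (SD, n = 5), 61.0 ± 14.6 CPM (SD, n = 10) and 57.1 ± 6.71 CPM (SD, n = 10). Its log2 fold changes, 0.03 ± 0.13 and -0.06 ± 0.13, lay within their errors.

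Of the 9 genes 1, Sox10, passed at 15 mg/kg, in a comparison where 1.31% of 14142 genes passed, 1.00% in the lower direction. All 9 log2 fold changes were negative there, from -0.66 to -0.06 with a median of -0.39, against a median of 0.00 over all genes, of which 49.8% were negative. The 9 values share the same levodopa animals, and several of the genes varied together between animals (below). Counts of signs or of p-values, here and in the lists below, are therefore not counts of independent results. By the edgeR p without adjustment, 6 of the 9 were lower (11.2% of all genes were): Sox10, Bcas1, Vcan, C1ql1, Olig1 and Gpr17. Without levodopa replicate 2 only 2 of the 9 were, Sox10 and Vcan. With every animal the exact permutation test gave the 6 genes unadjusted p-values from 0.00133 to 0.0143, where the smallest that 5 against 10 animals allow is 0.000333. As to the animals below the lowest levodopa animal, 1.82% of all genes had at least 9 of 10 there at 15 mg/kg, as Sox10, Bcas1 and Vcan did, 3.56% had at least 8 and 5.59% at least 7. No range lay wholly below the levodopa range, as 0.410% of all genes did.

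At 7.5 mg/kg 0 of the 9 genes passed with edgeR (0.0283% of all genes passed), and DESeq2 and limma-voom also called 0. Without adjustment 2 were lower, Olig2 and Vcan (6.64% of all genes were). Sox10 and Vcan had 7 of 10 animals below the lowest levodopa animal, as 3.08% of all genes had or exceeded (1.08% had at least 8, 0.332% at least 9 and 0.0636% all 10). The median log2 fold change was -0.29, with 8 of 9 negative against 48.9% of all genes. Both doses were compared with the same 5 levodopa animals, so these values are not independent of those at 15 mg/kg. Between the doses 0 passed with edgeR, DESeq2 or limma-voom (0.0283% of all genes passed with edgeR), and Sox10, at -0.33 ± 0.13 for 15 against 7.5 mg/kg, was the 1 gene with an unadjusted p below 0.05 (p = 0.0216 in the edgeR fit, adjusted p = 0.999; 2.14% of all genes were lower at that level). Of the 9 values 8 were negative, against 51.2% of all genes, and Olig2 was at 0.18 ± 0.11. With the mean of both doses set against levodopa 0 passed with edgeR (0.806% of all genes did, 0.665% in the lower direction), all 9 values were negative (49.4% of all genes), 6 had an unadjusted p below 0.05 (10.5% of all genes were lower at that level), DESeq2 called 0 and limma-voom called 1, Sox10.

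**Figure D2:**
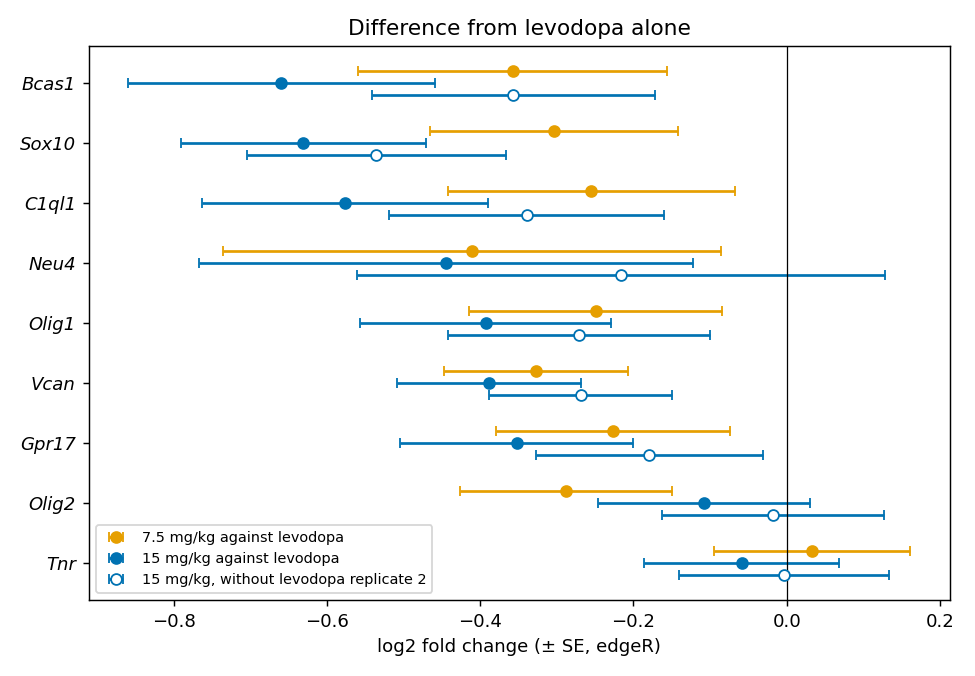
Log2 fold change against levodopa (horizontal axis, ± SE, from edgeR) of each gene at 7.5 mg/kg, at 15 mg/kg and at 15 mg/kg without levodopa replicate 2 (open symbols). All 9 values at 15 mg/kg are below 0 with every animal, from -0.66 for Bcas1 to -0.06 for Tnr, and all 9 lie nearer 0 when that animal is left out.

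Levodopa replicate 2 had the highest level of its arm for 9 of 9 genes, and without it no gene passed at 15 mg/kg. Sox10 was then at -0.54 ± 0.17 (edgeR adjusted p = 0.188), Bcas1 at -0.36 ± 0.18, C1ql1 at -0.34 ± 0.18, Neu4 at -0.22 ± 0.34 and Gpr17 at -0.18 ± 0.15. Olig1 and Vcan were each at -0.27, Olig2 was at -0.018 and Tnr at -0.0037. An unadjusted edgeR p below 0.05 remained for 2 of the 9 genes at 15 mg/kg, 0 at 7.5 mg/kg and 2 for both doses against levodopa. The median of the 9 genes moved from -0.39 to -0.27 at 15 mg/kg, where all 9 stayed negative, and from -0.29 to -0.13 at 7.5 mg/kg. The call of Sox10 depended on the fit. DESeq2 (adjusted p = 0.0125), limma-voom (0.0108) and an edgeR fit of the compared arms alone (0.018) kept it, while it was lost with a cortical marker score in the edgeR design (0.12). Of the 15 fits that each left out 1 animal of the compared arms, 11 ended it, with adjusted p between 0.05565 and 0.188: those without levodopa replicate 1, 2 or 3 and those without any of the 15 mg/kg replicates except 4 and 5. The log2 fold change itself stayed between -0.70 and -0.54. Without levodopa replicate 4, the lowest levodopa animal for 5 of the genes, 4 genes passed: Sox10, Bcas1 (-0.77), C1ql1 (-0.65) and Vcan (-0.44). That gain was not particular to these genes, as 894 genes passed over all genes in that fit, against 185 with every animal. Without the 15 mg/kg replicate 4, Bcas1 passed beside Sox10 (-0.74).

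How the genes vary from animal to animal was examined within arms, after subtracting each arm's mean log2 CPM, for 17 relations. Sox10 varied with Olig1 (Pearson r = 0.916, Spearman rho = 0.888, n = 25; permutation p = 1e-05 for each, the smallest that 100000 permutations can give; adjusted p = 2.13e-05 and 2.83e-05). It also varied with Olig2 (r = 0.882, rho = 0.782), Bcas1 (r = 0.831, rho = 0.824) and C1ql1 (r = 0.818, rho = 0.782), with permutation adjusted p at or below 0.000128 for all 6 coefficients. Without the animals farthest out, the 7.5 mg/kg replicate 1 and the 15 mg/kg replicate 4, these r were 0.869, 0.798, 0.831 and 0.73. Within the 10 animals of the 7.5 and the 15 mg/kg arm, r with Olig1 was 0.932 and 0.882, and r with the other 3 ran from 0.73 to 0.935. Gpr17 gave r = 0.602 (permutation p = 0.00312, adjusted 0.0053) but rho = 0.372 (permutation p = 0.088, adjusted 0.115), and r was 0.407 without those animals, so that relation rests in part on them. Neu4 gave r = 0.489 and rho = 0.44 (permutation p = 0.0192 and 0.0397, adjusted 0.0272 and 0.0675), and 0.338 without them.

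Vcan and Tnr showed no such relation to Sox10. Vcan gave r = 0.357 and rho = 0.332 (permutation p = 0.101 and 0.13, adjusted 0.123 and 0.158), and Tnr r = 0.0535 and rho = -0.238 (permutation p = 0.812 and 0.282, adjusted 0.863 and 0.3). A similar division appeared against a score of mature oligodendrocyte genes, the mean z-scored log2 CPM of 20 genes such as Mbp and Mal. Olig1 (r = 0.943, rho = 0.943), Sox10 (r = 0.945, rho = 0.915), Olig2 (r = 0.924, rho = 0.865), Bcas1 (r = 0.893, rho = 0.877) and C1ql1 (r = 0.778, rho = 0.675) varied with it, with permutation adjusted p at or below 0.00151, and r of 0.697 to 0.925 without the same 2 animals. Gpr17 (r = 0.548, rho = 0.402, permutation adjusted p = 0.0118 and 0.0997) passed on r alone. Neu4 (r = 0.429, rho = 0.314, permutation adjusted p = 0.0585 and 0.171), with 4 to 29 reads per library, passed on neither. Vcan (r = 0.31, rho = 0.374, permutation adjusted p = 0.18 and 0.115) and Tnr (r = -0.00063, rho = -0.201, permutation adjusted p = 0.998 and 0.367) did not pass either. The rho of Neu4 lay below that of Vcan. Among the genes whose arm-centred levels were most like those of Sox10, of 13067 others over the 25 animals, were S1pr5 (r = 0.969), Mag (0.966), Cldn11 (0.957) and Cnp (0.953), given as a description; all were measured in the same libraries as Sox10.

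**Figure D3:**
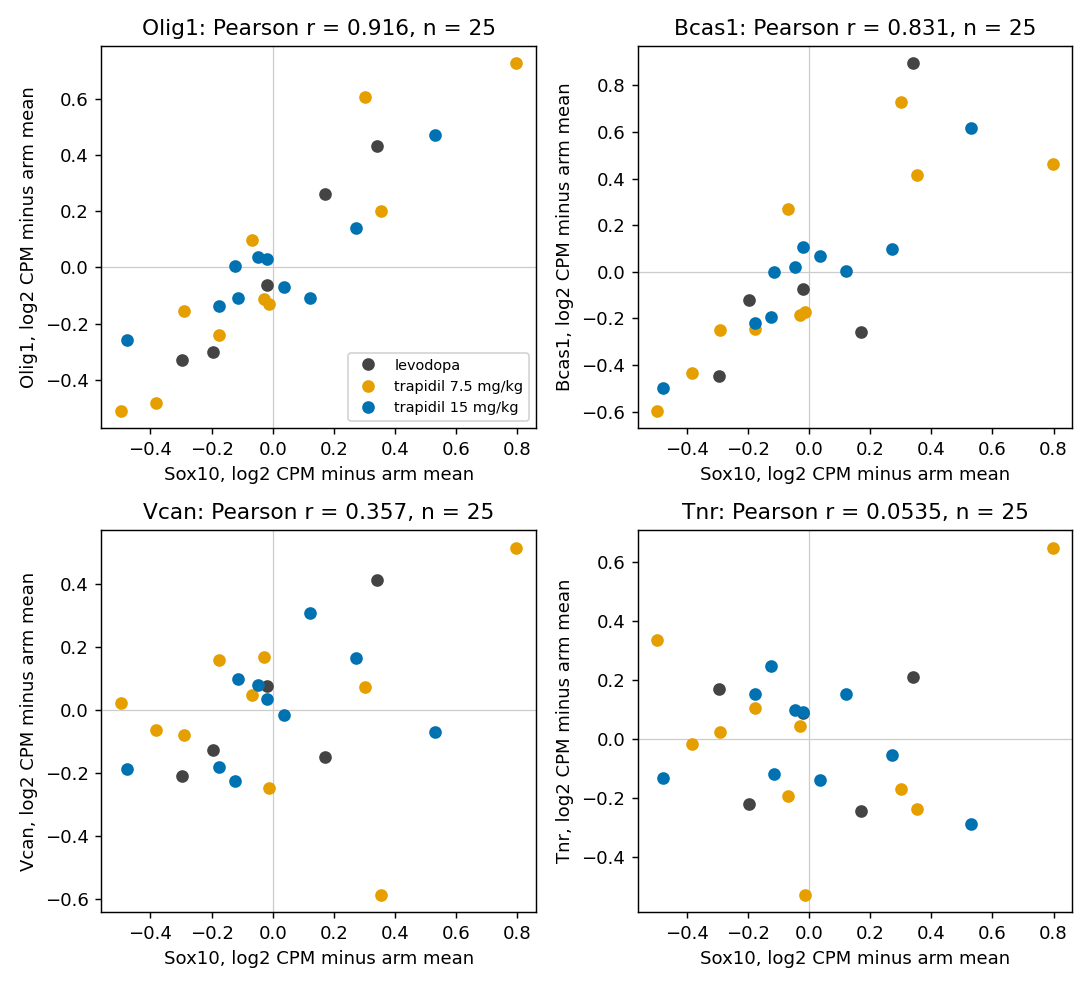
Arm-centred log2 CPM of Olig1, Bcas1, Vcan and Tnr (vertical axes) against Sox10 (horizontal axes), 1 point per animal, coloured by arm. The points of Olig1 and Bcas1 follow Sox10 (r = 0.916 and 0.831), while those of Vcan and Tnr scatter (r = 0.357 and 0.0535).

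Although Sox10 and Olig2 varied together within arms, their ratio differed between the arms. This pair was singled out after the values of all 36 pairs of the genes had been seen. The absolute ratio depends on transcript length and is not interpreted, but within a library it does not depend on the scaling. The log2 ratio of Sox10 to Olig2 was 1.15, 1.101, 1.06, 0.85 and 1.27 in levodopa replicates 1 to 5. At 7.5 mg/kg it ran from 0.74 to 1.28 with a median of 1.06, much as with levodopa. At 15 mg/kg it ran from 0.35 to 0.78 with a median of 0.59, wholly below the levodopa range. The means were 1.09 ± 0.15 (SD, n = 5), 1.06 ± 0.17 (SD, n = 10) and 0.56 ± 0.13 (SD, n = 10). The difference at 15 mg/kg was -0.53, with 10 of 10 animals below every levodopa animal (exact two-sided permutation p = 0.000333, 0.0005 adjusted over the 3 comparisons). Against 7.5 mg/kg it was -0.50 (exact permutation p = 2.17e-05, adjusted 6.5e-05), with 7.5 mg/kg replicate 10 (0.74) the 1 animal below the highest at 15 mg/kg. At 7.5 mg/kg against levodopa it was -0.03 (exact permutation p = 0.745, adjusted 0.745). These p-values leave out that the pair was chosen from 36, so they are not a test of the difference. Ranges that separate put the exact p at or next to its smallest value. At 15 mg/kg against levodopa it therefore only restates the separation.

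Levodopa replicate 2 did not carry that difference, which was -0.53 without it and between -0.59 and -0.48 without any 1 animal. Ranges that are apart stay apart when an animal is left out, so no p is given for these fits. Of the 36 pairs, 1 separated the 15 mg/kg from the levodopa animals and 0 separated the 7.5 mg/kg animals. Set over Olig2 in the same way, 0.573% of 14141 genes lay wholly below their levodopa range at 15 mg/kg and 0.0212% wholly above it (0 and 0.0212% at 7.5 mg/kg). Bcas1 over Olig2 differed by -0.50 and C1ql1 over Olig2 by -0.42 on the log2 scale at 15 mg/kg, with overlapping ranges, and Sox10 over Tnr by -0.58, also with overlapping ranges, whereas Sox10 over Bcas1 differed by -0.03. In the GRCr8 annotation neither Sox10 nor Olig2 overlaps another gene.

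**Figure D4:**
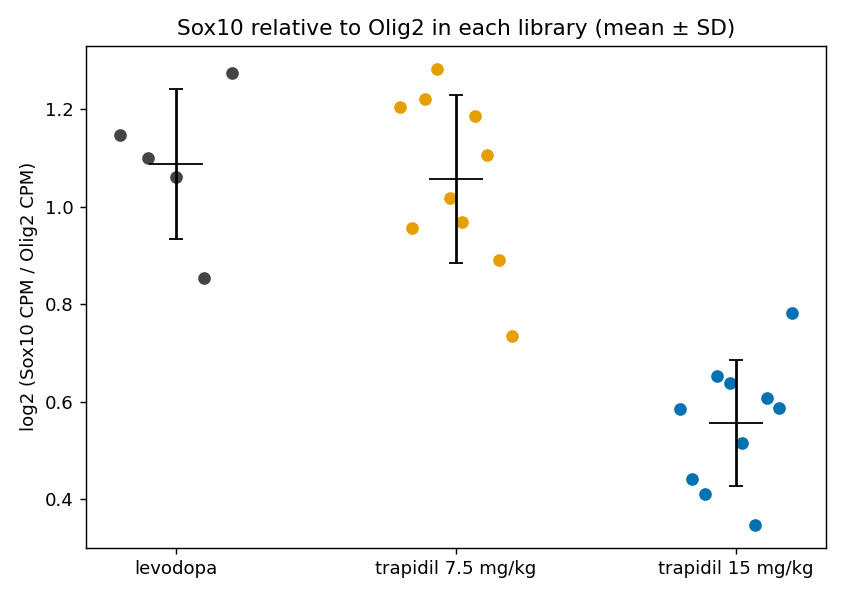
Log2 ratio of Sox10 to Olig2 CPM (vertical axis) in each animal of the 3 arms, with bars for mean ± SD. The 10 animals at 15 mg/kg, at 0.35 to 0.78, lie below all 5 levodopa animals, at 0.85 to 1.27, while the 7.5 mg/kg animals, at 0.74 to 1.28, cover the levodopa range.

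Other genes of the lineage were read from lists written down for this purpose, some of which share members. In the 6 lists that follow, of 18 to 28 genes each, 15 genes fell at 15 mg/kg, where 1.00% of all genes did. Many of these calls depended on single animals. Without levodopa replicate 2, 1 of the 15 still passed (Jag1), and without levodopa replicate 3, 0 did. Without levodopa replicate 1 or 5, 7 and 11 did, without replicate 4 all 15, and without 1 animal of the 15 mg/kg arm 5 to 15. All 15 log2 fold changes stayed negative in each of these fits. The 15 genes were picked for their fall in the same animals, so this was largely fixed in advance and lends no support. The calls over all genes moved as well, from 185 with every animal to 9 without levodopa replicate 3 and 894 without replicate 4.

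Of 22 further precursor markers 0 passed at 15 mg/kg with edgeR. By the unadjusted p below 0.05, 6 were lower and 2 higher, where 19.5% of all genes passed that level, 11.2% lower and 8.26% higher. The log2 fold changes ran from -0.86 to 1.097, with 16 negative and 6 positive and a median of -0.11 (-0.025 without levodopa replicate 2). Pdgfra, the growth factor receptor that defines precursors, was at 84.5 ± 23.3 CPM (SD, n = 5), 77.0 ± 9.46 CPM (SD, n = 10) and 75.1 ± 6.67 CPM (SD, n = 10), with -0.17 ± 0.10 at 15 mg/kg (edgeR adjusted p = 0.38). Cspg4, the NG2 proteoglycan, was at -0.38 ± 0.13 (edgeR adjusted p = 0.0974) and had the smallest p of the list at 7.5 mg/kg (-0.31 ± 0.13). Nkx2-2, a homeodomain factor of committed precursors, had the smallest p at 15 mg/kg (-0.74; edgeR adjusted p = 0.0596). Of 24 further lineage regulators Myrf, the factor that switches on myelin genes, fell by 0.55 ± 0.14 on the log2 scale (edgeR adjusted p = 0.0473). Its level was 187 ± 35.3 CPM (SD, n = 5) in the levodopa arm against 127 ± 23.2 CPM (SD, n = 10), and 0 of the list rose; the median was -0.16. Without levodopa replicate 2 Myrf was at -0.43 (edgeR adjusted p = 0.211) and the median at -0.082.

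Genes of newly formed oligodendrocytes had a median of -0.41 over 20 members at 15 mg/kg. Of these 3 fell: Nfasc, a cell adhesion protein of the node of Ranvier (-0.45 ± 0.10), the semaphorin Sema4d (-0.52 ± 0.14) and Samd4a (-0.38 ± 0.10), with edgeR adjusted p = 0.0217, 0.0485 and 0.0491. Without levodopa replicate 2 these were at -0.36, -0.42 and -0.30, with edgeR adjusted p from 0.125 to 0.216, and the median was -0.30. Nfasc is also made by neurons. Mature oligodendrocyte genes were negative in 20 of 20 with a median of -0.59, and 7 fell, those with the smallest p being Tspan2 (-0.60 ± 0.11), Opalin (-0.74 ± 0.16), Ermn (-0.58 ± 0.13) and Mal (-0.56 ± 0.13), with edgeR adjusted p from 0.0131 to 0.0299. Levodopa replicate 2 had the highest sum of this list, 21723 CPM against 12133 to 15667 CPM in the other levodopa animals. Without it 20 of 20 were still negative, with a median of -0.49, but 0 passed with edgeR, and the 4 genes named were at -0.49, -0.60, -0.53 and -0.50 (adjusted p from 0.0628 to 0.129). By the unadjusted p 19 were lower with all animals and 17 without it. Mbp, myelin basic protein, was at -0.63 ± 0.20 and did not pass (edgeR adjusted p = 0.0871). Among signals to precursors and their receptors 3 of 28 fell: the Notch ligand Jag1 (-0.46 ± 0.10), the growth factor Pdgfb and the morphogen Shh (-1.07 ± 0.28), the last at 4.32 ± 1.12 CPM with levodopa (SD, n = 5) and 2.05 ± 0.408 CPM at 15 mg/kg (SD, n = 10); their edgeR adjusted p were 0.0246, 0.0282 and 0.0471. Without levodopa replicate 2 they were at -0.51, -0.33 and -1.15, with edgeR adjusted p = 0.0327, 0.158 and 0.112. Of 18 matrix partners of Vcan and Tnr, Adamts4, a protease that cleaves versican and brevican, stood at 64.8 ± 20.01 CPM with levodopa (SD, n = 5) and fell to 39.0 ± 7.21 CPM (SD, n = 10). Its log2 value was -0.73 ± 0.15 (edgeR adjusted p = 0.0217), and the list median was -0.25. Without levodopa replicate 2 it was at -0.52 (edgeR adjusted p = 0.137). In these lists 0 genes rose, and 0 passed at 7.5 mg/kg or between the doses; Pdgfb came nearest at 7.5 mg/kg (-0.51 ± 0.10, edgeR adjusted p = 0.0674).

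**Figure D5:**
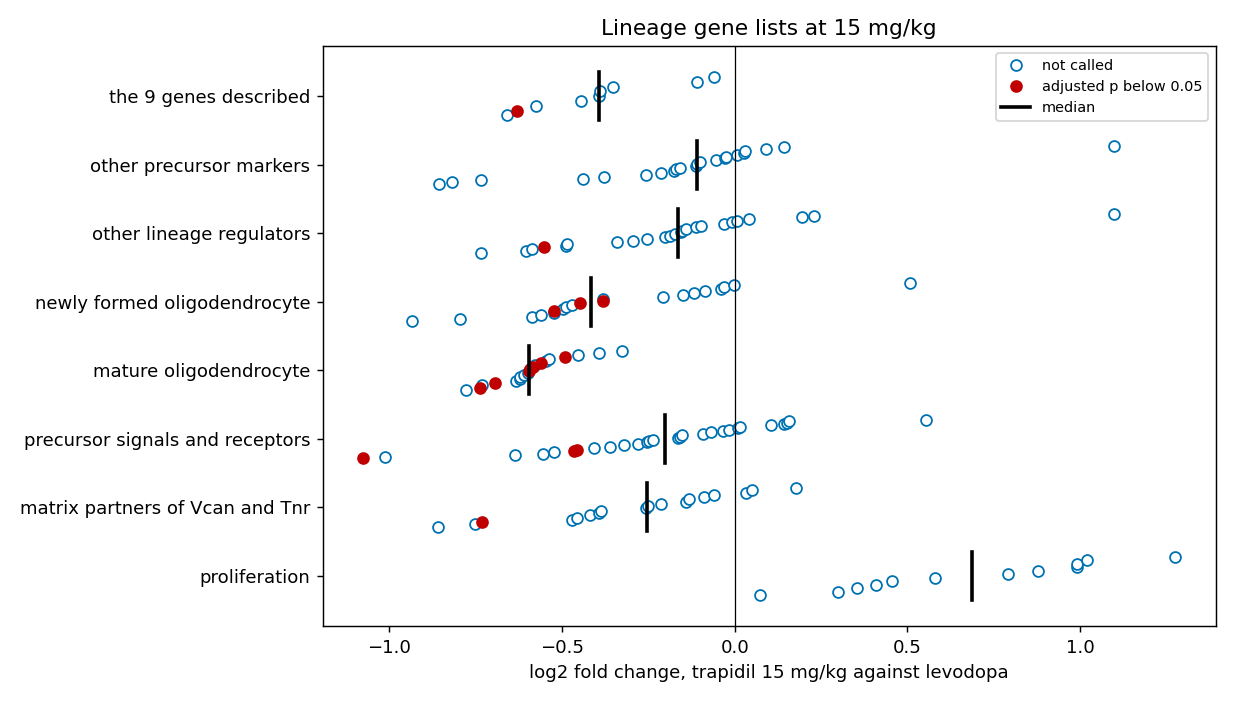
Log2 fold change at 15 mg/kg against levodopa (horizontal axis) of each tested gene of 8 lists (rows), filled where the edgeR adjusted p is below 0.05, with a bar at each median. Medians run from -0.11 for further precursor markers through -0.39 for the 9 genes described to -0.59 for mature oligodendrocyte genes, and proliferation genes lie above 0.

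Markers of other cells were read in the same libraries. At 15 mg/kg astrocyte genes were negative in 12 of 12, microglial genes in 10 of 11 and endothelial genes in 10 of 10, against 49.8% of all genes (50.2% were positive). In these 3 lists 1 gene passed, the endothelial transporter Slco1a4 (-0.47; edgeR adjusted p = 0.0463), and the endothelial marker Cldn5 is listed at 0 in all libraries. Levodopa replicate 2 set the upper end of the levodopa range in each. Its astrocyte sum was 7654 CPM against 3998 to 4892 CPM in the other levodopa animals, 3567 to 5516 CPM at the low dose and 3194 to 4806 CPM at the high dose. Its microglial sum was 869 CPM against 510 to 641 CPM, with 450 to 780 CPM and 473 to 581 CPM at the doses. Its endothelial sum was 883 CPM against 495 to 525.8 CPM, with 415 to 589 CPM and 418 to 507 CPM at the doses. Without it 6 of 12 astrocyte, 8 of 11 microglial and 9 of 10 endothelial genes were negative, with medians of -0.0063, -0.058 and -0.20, and 0 passed. Mature oligodendrocyte sums were 8363 to 18688 CPM at the low dose and 7404 to 15581 CPM at the high dose. Schwann cells also express Sox10. Of 5 tested Schwann cell genes 4 were negative at 15 mg/kg and 0 passed, with sums of 52.0 to 197 CPM with levodopa, 24.1 to 103 CPM at the low dose and 38.8 to 88.8 CPM at the high dose. Egr2, which neurons also induce, made up most of these sums (106 CPM of a mean of 122 CPM with levodopa). Foxd3 was not analysed here. The part of these cells in the results was not tested.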

How the data were processed

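Striatal polyadenylated RNA of 25 animals was sequenced, 1 library each. The authors deposited raw read counts per gene symbol; per the submitters' processing notes the tools were FastQC, STAR and HTSeq and the build Rnor_6.0. Tool versions, annotation, strand setting and batches are not given in the sources used here. All value columns matched a library's label.

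Genes were filtered with filterByExpr (14142 kept), scaled by TMM and tested with edgeR 4.0.16 (glmQLFit and glmQLFTest, R 4.3.3) in 1 fit of all 25 libraries with arm as factor. Tests were two-sided, Benjamini-Hochberg adjusted over all genes, with a threshold of 0.05; a gene "passed", "rose" or "fell" on that basis. Standard errors are the log2 fold change over the square root of F. CPM use the TMM factors, and log2 CPM a prior count of 2. Libraries of an arm differed from each other by at least 4.83 in chi-square over its degrees of freedom, so none was a repeat deposit. The steps were tested on simulated data. Alternatives were other scalings, no filter, DESeq2 1.42.0, limma-voom (limma 3.58.1), other sets of libraries, a cortical score and the replicate number as a block. P-values measure the spread between these libraries.

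The 10 genes and all lists were chosen with earlier results of these data known. All 10 genes were to be named, with up to 4 called genes of each lineage list or the one with the smallest p, and Pdgfra, Cspg4, Myrf and Mbp in any case. The Sox10 to Olig2 ratio, with its leave-one-out values, and the mention of Egr2 were added after values were seen. Some items are not reported here.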

Additional observations from a re-analysis of the deposited data

Results flagged for a closer look

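Levels of 4 of 27 gene and arm combinations had an animal far from the others of its arm, at a distance that chance gives in about 1 of 20 such groups. Bcas1 stood at 517.4 CPM in levodopa replicate 2, with the next levodopa animal at 264.6 CPM. In the 15 mg/kg arm replicate 4 was high for Bcas1 (281.3 CPM, next 197.1 CPM) and for Olig1 (268 CPM, next 213.3 CPM). Gpr17 stood at 23.93 CPM in the 7.5 mg/kg replicate 1, the library with the lowest total count, with the next animal at 15.22 CPM. In each case the outlying animal was the high one.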

How the results depend on the processing

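Depth limits Neu4 most, at 4 to 29 reads per library. Of 315 values of the 9 genes under 9 other settings, 299 kept their direction and side of the threshold, 4 lost it, 3 gained it and 9 changed sign. At 15 mg/kg the 1 called gene became 0 without a low-count filter, with the cortical score in the design, with the replicate block and without a pair of libraries, levodopa replicate 2 with 7.5 mg/kg replicate 1, (Sox10 at -0.63, -0.54, -0.50 and -0.54; adjusted p = 0.0521, 0.12, 0.237 and 0.0702). It became 2 with DESeq2 and with only the arms compared, as Vcan passed (-0.39 in each), and 0 to 4 without 1 animal. For both doses against levodopa the count of 0 became 1 with limma-voom, and 0 to 2 without 1 animal (1 or more without levodopa replicate 4 or the 7.5 mg/kg replicate 1). No other setting moved the count of the 9 genes. Of the 15 called genes of the other lineage lists, 11 still passed without a filter, 4 without the pair, and 0 with the cortical score or the block; this check was added after the values were seen.

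Over all genes the count of 4 at 7.5 mg/kg became 7 without a filter, 54 with DESeq2, 102 with limma-voom, 1 with only the arms compared, 0 with the replicate block, 27 without the pair of libraries and 1 to 70 without 1 animal. The 185 at 15 mg/kg became 627 with DESeq2, 715 with limma-voom, 448 with only the arms compared, 0 with the block, 8 with the cortical score, 76 without the pair and 9 to 894 without 1 animal. The 4 between the doses became 13 with limma-voom, 9 without the pair and 4 to 8 without 1 animal. The 114 for both doses became 426 with DESeq2, 563 with limma-voom, 6 with the block, 10 with the cortical score, 65 without the pair and 19 to 624 without 1 animal. The cause of these moves was not tested.

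The signs that changed belonged to log2 fold changes near 0. Tnr turned to -0.070 with the replicate block at 7.5 mg/kg, to 0.031 with the cortical score at 15 mg/kg, and for both doses to 0.056 with that score and 0.00022 without the pair. Between the doses limma-voom turned Olig1 to 0.039 and Gpr17 to 0.032, the cortical score turned Neu4 to 0.012, and leaving out the pair turned Neu4 to 0.037 and Vcan to 0.0017. Without 1 animal Tnr ran from -0.051 to 0.088 at 7.5 mg/kg and from -0.070 to 0.042 for both doses, and between the doses Neu4 ran from -0.19 to 0.12 and Vcan from -0.12 to 0.0018. The Sox10 to Olig2 ratio at 7.5 mg/kg ran from -0.089 to 0.016. Replicate numbers did not pair the animals: over 20 pairs the correlation of deviations from the arm means ran from -0.354 to 0.208, and numbers 6 to 10 held no levodopa animal.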

Other observations

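Genes of dividing cells lay on the other side of 0 from the lineage genes. At 15 mg/kg 12 of 12 proliferation genes had a positive log2 fold change, with a median of 0.69, against 50.2% of all genes, and at 7.5 mg/kg 11 of 12 with a median of 0.46. With edgeR 0 passed, 3 were higher at an unadjusted p below 0.05 at 15 mg/kg (8.26% of all genes were; 2 of the 12 without levodopa replicate 2), and Ccnb1, cyclin B1, came nearest (0.79; adjusted p = 0.0596), from 1.44 CPM with levodopa to 2.51 CPM at 15 mg/kg. Levels were low: the 12 genes summed to 30.8 to 62.6 CPM with levodopa and 40.5 to 62.8 CPM at 15 mg/kg, ranges that overlapped. Levodopa replicate 4 had the 62.6 CPM, and the other levodopa animals stood at 30.8 to 45.0 CPM. At 15 mg/kg DESeq2 called 1 of the 12 higher, limma-voom 2, and edgeR without levodopa replicate 4 called 5 (median 1.17). The other edgeR settings called 0. Over all genes these settings also called more, for instance 894 without that animal against 185 with every animal. Genes of ependymal cells and the choroid plexus, which differ widely between animals of an arm, also had positive values in 7 of 8 at 15 mg/kg, while Ttr, transthyretin of the choroid plexus, fell (-5.11; edgeR adjusted p = 0.0217). The whole list, Ttr included, summed to 3.20, 42.2, 3.94, 36.8 and 2.12 CPM in levodopa replicates 1 to 5. Ttr was therefore at most 3.94 CPM in replicates 1, 3 and 5. The part of these cells in these values was not tested.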
